A study of Mus musculus with 10 samples.

Results

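Osr1, Osr2, Prrx1, Prrx2, Twist1, Twist2, En1, Tbx15, Tcf21 and Scx are 10 genes for transcription factors of mesenchymal cells, the loose connective tissue lineage that gives rise to dermis, tendon and the tissue between muscle fibres. They were chosen by name from the 19505 genes with a symbol on the array, and each had 1 probe set. The list was drawn up with earlier results of these arrays known and is led by Osr1, so the levels of Osr1 in skin over an expander and in skin without surgery are given as a description. Where a count of members past a test includes Osr1, nothing is read from its share in it. Whole back skin of C57BL/6J mice, 9 weeks old at the start, was measured on 10 arrays. In 4 arrays of expanded skin an implanted silicone expander had been enlarged by injections of PBS, and in 4 arrays of non-expanded skin the expander had been implanted and not filled. Both kinds of skin were sampled at 0, 7, 14 and 21 days from full injection, with 1 array for each day. The other arrays were skin of mice without surgery, 1 in anagen, when hair grows, and 1 in telogen, when it rests. The labels leave unsaid if RNA came from single or pooled animals. The 4 arrays of expanded or non-expanded skin (an arm) differ in day as well. The error of an arm, or between the arms, is therefore the spread between such arrays, which may in part be technical. For differences from skin without surgery, anagen and telogen skin were pooled, so the error also holds the gap between those arrays.

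The 10 genes belong to 5 families. Osr1 and Osr2 encode odd-skipped zinc finger proteins; in the mouse, Osr1 marks fibroblast-like cells of muscle connective tissue and is expressed again in the interstitial cells of injured muscle. Prrx1 and Prrx2 encode paired-related homeodomain proteins of limb and craniofacial mesenchyme, and En1 a homeodomain repressor whose lineage in mouse back skin holds the fibroblasts that make scar. Twist1, Twist2, Tcf21 and Scx encode basic helix-loop-helix (bHLH) proteins, which bind DNA in pairs with the E proteins Tcf3, Tcf4 and Tcf12. Twist2 is known from the dermis, Tcf21 from the mesenchyme of inner organs and Scx from tendon. Tbx15 encodes a T-box factor that sets the dorsoventral pattern of the mouse coat.

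Promoter sequences were matched by gene identifier for 6 of the 10 genes in RefSeq (GRCm38.p6, the mm10 build), and those of the Prrx pair, the Twist pair and En1 are shown because the Prrx genes varied together over the arrays, the Twist genes did not, and En1 lay closest to Osr1 among the members. Each is the 250 bases before 1 annotated start of the gene, which need not be its outermost, 5′ to 3′ on the gene's strand. They lie at chr1:163313651-163313900 on the minus strand for Prrx1 and, on the plus strand, at chr2:30845117-30845366 for Prrx2, chr12:33957421-33957670 for Twist1, chr1:91801211-91801460 for Twist2 and chr1:120602237-120602486 for En1. Capitals mark matches, on either strand, to TATAAA, known as a promoter element near the start, to CCAAT, a common upstream element, to TAATTA, a core that many homeodomains bind, and to CANNTG, the E-box that bHLH pairs bind, and no matches overlap.
Prrx1: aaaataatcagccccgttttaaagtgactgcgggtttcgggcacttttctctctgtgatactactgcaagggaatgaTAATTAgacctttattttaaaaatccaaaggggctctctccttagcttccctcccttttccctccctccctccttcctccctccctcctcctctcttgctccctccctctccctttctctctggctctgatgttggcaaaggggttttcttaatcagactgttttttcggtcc
Prrx2: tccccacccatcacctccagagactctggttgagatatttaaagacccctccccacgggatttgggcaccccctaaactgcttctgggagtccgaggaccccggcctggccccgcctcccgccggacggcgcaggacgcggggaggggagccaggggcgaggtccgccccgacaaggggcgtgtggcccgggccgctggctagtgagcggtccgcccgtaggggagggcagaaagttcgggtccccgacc
Twist1: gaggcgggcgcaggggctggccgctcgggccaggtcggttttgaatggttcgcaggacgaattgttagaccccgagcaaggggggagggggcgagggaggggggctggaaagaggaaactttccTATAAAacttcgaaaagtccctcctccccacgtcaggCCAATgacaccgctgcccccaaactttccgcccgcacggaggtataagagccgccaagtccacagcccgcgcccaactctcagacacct
Twist2: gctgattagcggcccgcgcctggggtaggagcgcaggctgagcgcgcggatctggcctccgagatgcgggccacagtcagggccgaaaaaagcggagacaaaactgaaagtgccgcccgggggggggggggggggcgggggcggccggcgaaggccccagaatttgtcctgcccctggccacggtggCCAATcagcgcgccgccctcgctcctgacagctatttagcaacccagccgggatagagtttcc
En1: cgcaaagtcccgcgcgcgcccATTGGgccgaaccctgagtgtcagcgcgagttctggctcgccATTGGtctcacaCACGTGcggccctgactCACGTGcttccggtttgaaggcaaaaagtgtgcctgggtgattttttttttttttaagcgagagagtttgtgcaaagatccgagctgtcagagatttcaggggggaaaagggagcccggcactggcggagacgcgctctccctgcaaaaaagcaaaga

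Of 32851 RefSeq promoter windows of this length, 12.4% held TATAAA, 33.9% CCAAT, 4.84% TAATTA and 66.2% CANNTG. The Prrx1 window held 1 TAATTA, from 173 to 168 bases before the start, and the Prrx2 window none of the 4 motifs. The windows of Twist1 and Twist2 shared 1 CCAAT each, from 89 to 85 bases before the Twist1 start and from 63 to 59 before that of Twist2, and Twist1 alone of the pair held TATAAA, from 126 to 121. En1 had 2 CCAAT and 2 CANNTG matches, and both CANNTG matches read CACGTG. GC content was 47.6% for Prrx1, 70.0% for Prrx2, 62.4% for Twist1, 68.8% for Twist2 and 56.0% for En1, beside a median of 52.4% over all windows. These matches describe letters and no binding.

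Signals are given as deposited, on a log2 scale where 586 probe sets exceed 16, the log2 limit of a 16-bit scanner, on at least 1 array. Array medians lay between 6.27 and 6.45, and the median of 23 background probe sets was 5.46. The arrays correlated with each other at 0.79 to 0.98 over the genes tested, as a description across genes. Keratinocyte markers such as Krt14 averaged 15.59 to 16.23 on expanded, 14.69 to 15.74 on non-expanded, 15.01 on the anagen and 15.07 on the telogen array, so all 10 arrays carried the markers of skin. Of the members, 9 passed the level filter (a mean above 4.86, the 30th percentile of all genes) and were tested. Tcf21 had a mean of 3.61 and lay below the background median on all 10 arrays. Scx, the member just inside the filter, had a mean of 5.82, with 8 arrays above the background median. In whole skin, fewer cells of a type and less RNA per cell cannot be told apart.

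Osr1 had the largest difference among the members between skin over an expander, filled or not, and skin without surgery. Osr1 (chromosome 12, 9574442 to 9581500, GRCm38) had log2 signals of 16.02, 15.40, 15.98 and 15.47 in expanded skin at days 0, 7, 14 and 21, and 15.50, 15.96, 15.27 and 16.50 in non-expanded skin on the same days, against 11.02 in anagen and 12.59 in telogen skin without surgery. All 8 expander arrays were above both arrays without surgery, by at least 2.69 on the log2 scale. Expanded skin averaged 15.72 ± 0.32 and non-expanded skin 15.81 ± 0.54 (SD, n = 4 arrays each). The difference from skin without surgery was 3.91 ± 0.48 (SE) for expanded and 4.00 ± 0.48 for non-expanded skin, or 15.1-fold and 16.1-fold on the deposited scale. Of the Osr1 values, 2 exceeded 16, and the folds hold only if the values are log2 signals, which no label states. The 2 differences share the anagen and telogen arrays.

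**Figure D1:**
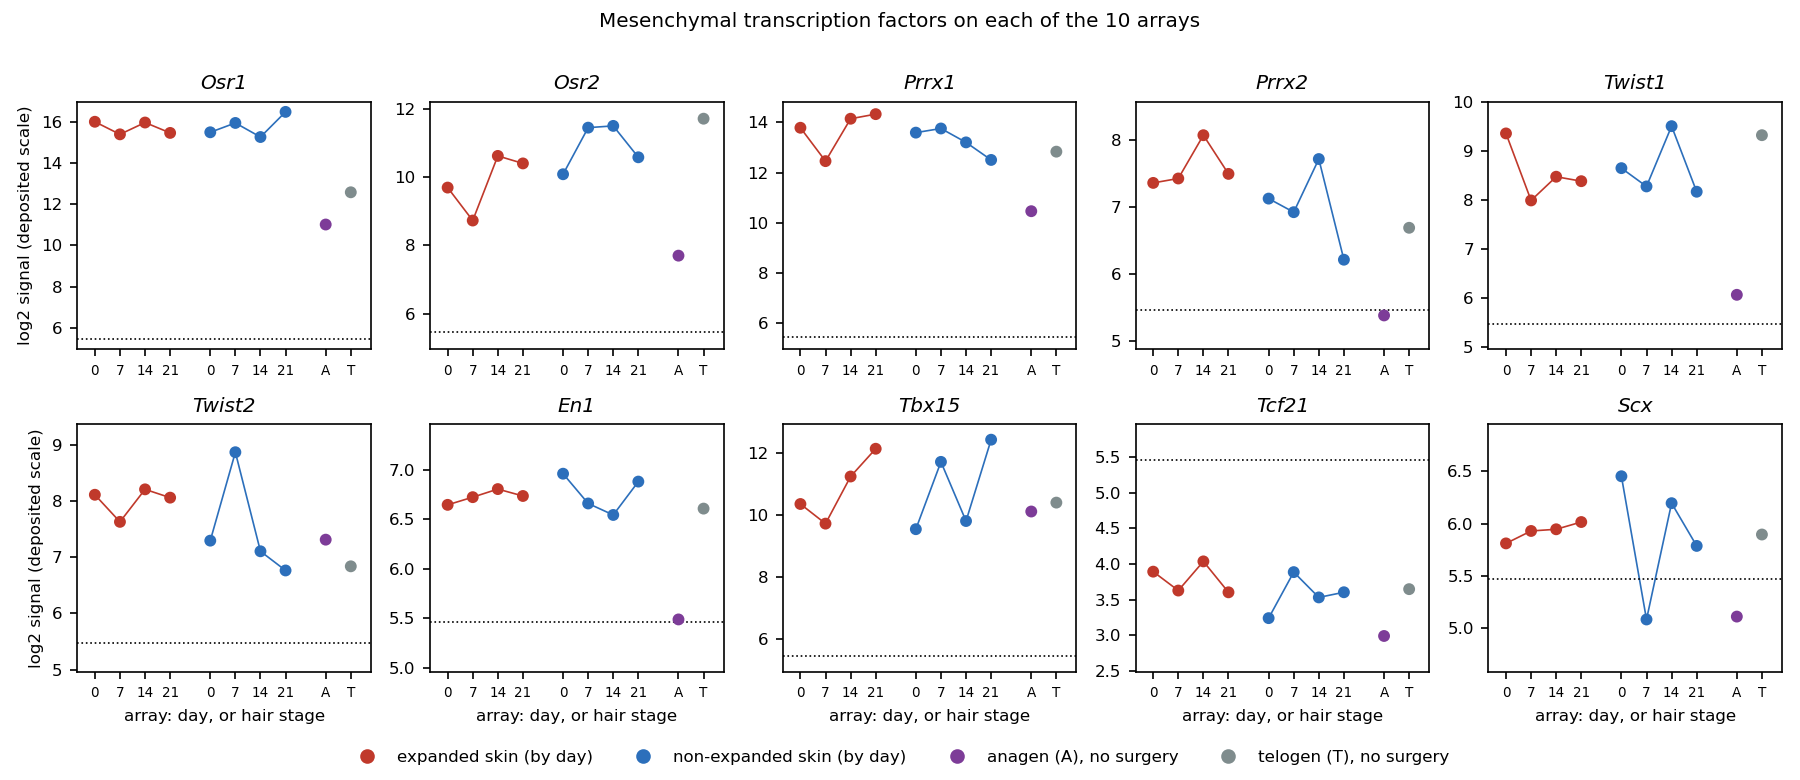
Log2 signal of each member on the 10 arrays, with expanded skin (red) and non-expanded skin (blue) by day after full injection, then anagen (A, purple) and telogen (T, grey) skin without surgery; the dotted line is the background median of 5.46, and each panel has its own vertical axis. Osr1 lies at 15.27 or above on all 8 expander arrays and at 11.02 and 12.59 without surgery, while Tcf21 stays below the dotted line.

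The other members were also higher on average over an expander, by less, and in non-expanded skin all of them overlapped with skin without surgery. Set against skin without surgery, all 9 tested members were higher in expanded skin in the fit (50.6% of all genes were), with a median log2 difference of 0.86 beside 0.01 over all genes. In non-expanded skin all 9 were higher too (50.7% of all genes), with a median of 0.95 beside 0.01. Both counts include Osr1 and share the arrays without surgery. Against telogen skin alone, 7 of 9 were higher in expanded and 6 of 9 in non-expanded skin, while against anagen skin alone 9 of 9 were in either arm. By limma with Benjamini-Hochberg adjustment over 13653 genes, 1 of the 9 passed in expanded skin, Osr1, against a background of 0.447% of genes called higher and 0.0293% called lower, and nothing is read from it because Osr1 was picked with these values known. The count was 0 without the expanded array of day 0 or that of day 14. Against telogen skin alone 1 member (Osr1) passed, with 0.454% of all genes, and against anagen skin alone 5 did, with 13.6% of all genes, the others being Prrx1, Prrx2, Twist1 and En1. In both cases skin without surgery was 1 array, assumed to vary as the expander arrays did. In non-expanded skin 0 members and 0 genes passed (2144 genes, or 15.7%, had an unadjusted p under 0.05, among them 2 members, Osr1 and Prrx1). Against telogen skin alone 0 members and 0 genes passed, and against anagen skin alone 5 members, Osr1, Osr2, Prrx1, Twist1 and En1, with 19.4% of all genes.

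Prrx1 and Prrx2 had the next largest differences in expanded skin. Prrx1 (chromosome 1, 163245119 to 163315145) had 13.79, 12.46, 14.15 and 14.33 in expanded skin and 13.59, 13.76, 13.20 and 12.51 in non-expanded skin at days 0, 7, 14 and 21, against 10.46 in anagen and 12.84 in telogen skin. Expanded day 7 and non-expanded day 21 lay below telogen, and the 6 other expander arrays above it. Its difference from skin without surgery was 2.03 ± 0.69 for expanded skin (SE, limma adjusted p = 0.184) and 1.62 ± 0.69 for non-expanded skin (adjusted p = 0.299). Prrx2 (chromosome 2, 30845064 to 30881251) had 7.36, 7.42, 8.07 and 7.49 in expanded skin and 7.12, 6.92, 7.71 and 6.21 in non-expanded skin, against 5.38 in anagen and 6.69 in telogen skin. All 4 expanded arrays exceeded telogen, as did 3 of the 4 non-expanded ones. The Prrx2 difference was 1.55 ± 0.47 for expanded (adjusted p = 0.14) and 0.96 ± 0.47 for non-expanded skin (adjusted p = 0.354), and neither passed.

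En1, the marker of the scar-forming lineage (chromosome 1, 120602487 to 120607991), had a mean of 6.73 ± 0.07 over expanded arrays, against 6.76 ± 0.19 over non-expanded arrays (SD, n = 4 each). It had 6.65, 6.72, 6.81 and 6.74 in expanded skin and 6.96, 6.66, 6.54 and 6.88 in non-expanded skin, against 5.49 in anagen and 6.61 in telogen skin. The telogen value lay among those of non-expanded skin and below all 4 expanded ones, and the anagen value lay near the background median. The difference from skin without surgery was 0.68 ± 0.32 for expanded and 0.71 ± 0.32 for non-expanded skin (limma adjusted p = 0.329 and 0.322). No overlap with both arrays without surgery was seen for 4 of 9 members in expanded skin, Osr1, Prrx2, Twist2 and En1 (14.0% of all genes), and for 1 of 9, Osr1, in non-expanded skin (11.5% of all genes); 0 of 9 lay below both arrays without surgery in non-expanded skin (7.21% of all genes) or in expanded skin (8.59%).

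For Twist1 and Osr2 the direction depended on which hair stage stood for skin without surgery. Twist1 (chromosome 12, 33957671 to 33959831) had 9.35, 7.99, 8.47 and 8.38 in expanded skin and 8.65, 8.28, 9.50 and 8.17 in non-expanded skin, against 6.07 in anagen and 9.32 in telogen skin. Every expander array was above anagen, but only expanded day 0 and non-expanded day 14 were above telogen. The Twist1 difference from skin without surgery was 0.86 ± 0.77 for expanded and 0.95 ± 0.77 for non-expanded skin (adjusted p = 0.643 and 0.596); against telogen alone it turned to -0.77 and -0.67. Osr2 (chromosome 15, 35296098 to 35303305) had 9.69, 8.72, 10.61 and 10.39 in expanded skin and 10.08, 11.44, 11.49 and 10.57 in non-expanded skin, against 7.70 in anagen and 11.70 in telogen skin. No expander array reached the telogen value, and none fell to the anagen one. Its difference was 0.16 ± 0.95 for expanded and 1.20 ± 0.95 for non-expanded skin (adjusted p = 0.96 and 0.59); against telogen alone these turned to -1.85 and -0.81.

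Twist2, the other Twist gene (chromosome 1, 91801461 to 91848034), had 8.11, 7.63, 8.21 and 8.06 in expanded skin and 7.29, 8.87, 7.11 and 6.76 in non-expanded skin, against 7.31 in anagen and 6.84 in telogen skin. The expanded arrays were all above both arrays without surgery, while of the non-expanded arrays that of day 7 alone was. The differences were 0.93 ± 0.51 and 0.43 ± 0.51 (adjusted p = 0.414 and 0.735), and the second turned to -0.02 without the non-expanded array of day 7. On that array the means of 24 fibroblast markers, 7 macrophage markers and 7 endothelial markers were also the highest of the 10, at 14.15, 13.68 and 10.93; the part of these cells in the Twist2 value was not tested.

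Tbx15 and Scx also overlapped with skin without surgery in both arms. Tbx15 (chromosome 3, 99240348 to 99354260) had 10.35, 9.72, 11.23 and 12.13 in expanded skin and 9.54, 11.70, 9.80 and 12.42 in non-expanded skin, against 10.11 in anagen and 10.39 in telogen skin. Both arms had their highest value at day 21 and values below telogen at day 0. Scx, the tendon factor (chromosome 15, 76457411 to 76459468), had 5.81, 5.93, 5.95 and 6.01 in expanded skin and 6.45, 5.08, 6.20 and 5.79 in non-expanded skin, against 5.11 in anagen and 5.90 in telogen skin, close to background throughout. Tbx15 differed by 0.61 ± 0.86 and 0.61 ± 0.86, and Scx by 0.42 ± 0.39 and 0.38 ± 0.39, for expanded and non-expanded skin, with limma adjusted p of 0.784, 0.779, 0.651 and 0.692 in that order. Without the array of day 21 of the arm itself, the Tbx15 difference was 0.18 in expanded and 0.098 in non-expanded skin, and leaving out other arrays gave up to 0.98 (without expanded day 7) and 1.06 (without non-expanded day 0). Tcf21 (chromosome 10, 22817263 to 22820143) read 3.60 to 4.04 in expanded and 3.24 to 3.89 in non-expanded skin, against 2.99 in anagen and 3.65 in telogen skin, all below background.

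**Figure D2:**
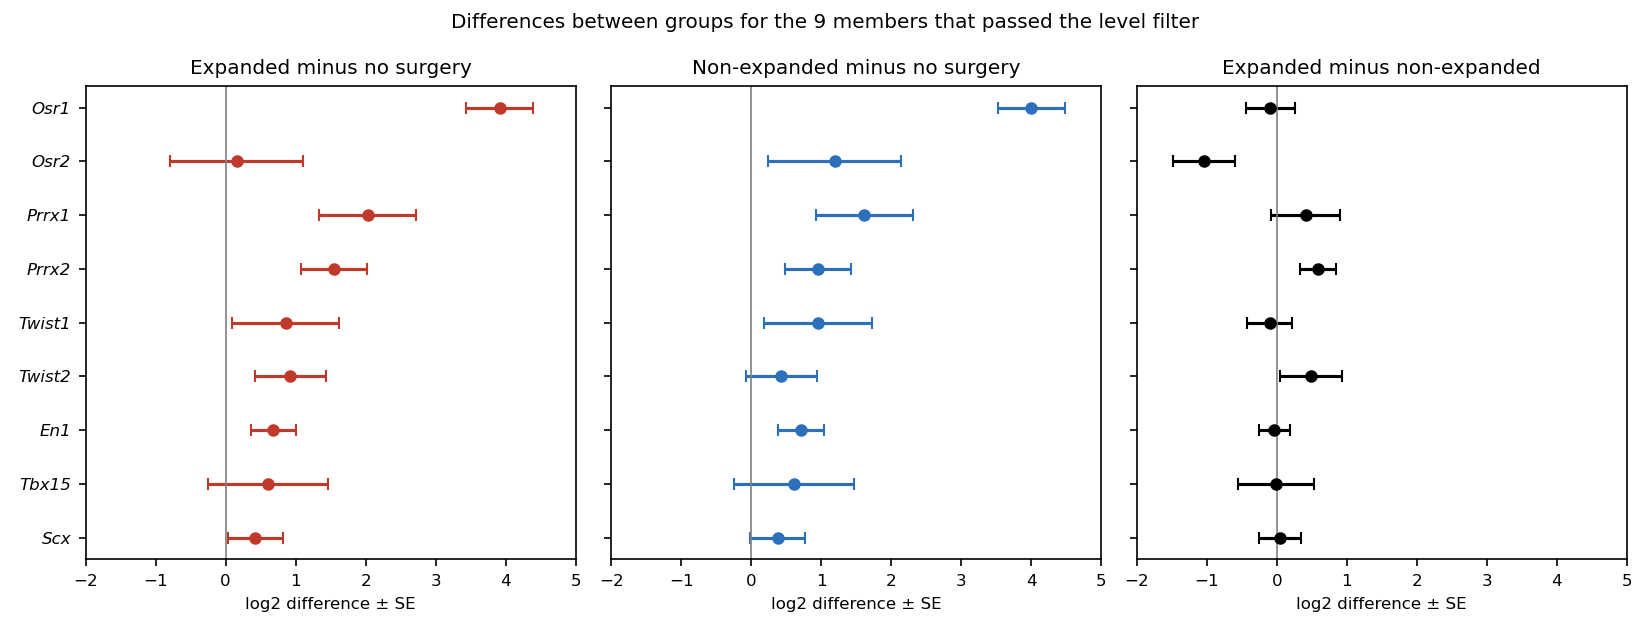
Log2 differences with standard errors (horizontal axis) for the 9 members that passed the level filter, for expanded minus no surgery (left), non-expanded minus no surgery (middle) and expanded minus non-expanded (right), with 4 arrays in each arm and 2 without surgery. Osr1 lies at 3.91 and 4.00 against skin without surgery and at -0.09 between the arms, and the left and middle panels share the arrays without surgery.

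No member passed the test between filled and unfilled expanders. Of the 9 tested members 4 were higher and 5 lower in expanded than in non-expanded skin (52.5% of all genes were higher), with a median difference of -0.01 beside 0.02 over all genes. By limma with the day as a block, 0 of 9 members and 0 of 13653 genes passed (1202 genes, or 8.80%, and 0 members had an unadjusted p under 0.05). No member had arms that did not overlap, as 2.97% of genes did on the higher and 1.87% on the lower side. For Osr1 the difference was -0.09 ± 0.35 (SE), with expanded skin higher on 2 of 4 days.

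Osr2 and Prrx2 were the only members with the same sign on all 4 days. The mean of Osr2 was 9.85 ± 0.85 over expanded arrays, against 10.9 ± 0.69 over non-expanded arrays (SD, n = 4 each), and Osr2 was lower in expanded skin on each day, by 0.39, 2.72, 0.88 and 0.18 on the log2 scale in day order; 8.10% of all genes were lower on each day. Its difference was -1.04 ± 0.44 (limma adjusted p = 0.575), and -0.48 without both arrays of day 7. Of these, the expanded array carried hair genes (a marker mean of 11.69). The non-expanded one had the highest fibroblast, macrophage and endothelial marker means of the 10 arrays. The part of these cells in the Osr2 values was not tested. The mean of Prrx2 was 7.58 ± 0.33 over expanded arrays, against 6.99 ± 0.62 over non-expanded arrays, and Prrx2 was higher on each day, by 0.23, 0.50, 0.35 and 1.28; 9.18% of all genes were higher on each day. The Prrx2 difference was 0.59 ± 0.26 (adjusted p = 0.583). Prrx1 averaged 13.68 ± 0.85 over expanded arrays, against 13.27 ± 0.56 over non-expanded ones, with differences of 0.19, -1.30, 0.94 and 1.83 at days 0, 7, 14 and 21 and a fitted one of 0.42 ± 0.49 (adjusted p = 0.826). Twist2 averaged 8.0 ± 0.26 over expanded arrays, against 7.51 ± 0.93 over non-expanded ones, and differed by 0.49 ± 0.45 (adjusted p = 0.767), with 1.07 without day 7 and 0.23 without day 21. Without day 21, Prrx1 differed by -0.055 and Prrx2 by 0.36; without day 7, Prrx1 differed by 0.99. The 4 remaining members, Twist1, En1, Tbx15 and Scx, differed by -0.10 ± 0.32, -0.03 ± 0.22, -0.01 ± 0.55 and 0.05 ± 0.30. A p that misses the threshold does not show that the arms were alike.

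Over time, straight lines fitted within each arm called 0 of 9 members and 0 of 13653 genes by limma (unadjusted p under 0.05 for 339 genes, 2.48%, in expanded and 495 genes, 3.63%, in non-expanded skin, with 0 members in either). The line went up in 7 of 9 members in expanded skin (50.8% of all genes) and in 3 of 9 in non-expanded skin (50.3%). The fitted change of Tbx15 over 21 days was 2.05 ± 1.12 in expanded and 2.02 ± 1.12 in non-expanded skin, and its slopes differed by 0.03 ± 1.59. Leaving out 1 day gave 1.33 (without day 21) to 3.61 (without day 0) in expanded and 0.39 (without day 21) to 2.62 (without day 14) in non-expanded skin, where it was 1.07 without day 0. In non-expanded skin this was no steady course, since days 7 and 21 read 11.70 and 12.42 and days 0 and 14 read 9.54 and 9.80. Prrx1 changed by 1.00 ± 0.75 in expanded and -1.15 ± 0.75 in non-expanded skin, and the slopes differed by 2.14 ± 1.06 (adjusted p = 0.999). Leaving out 1 day gave 0.54 (without day 7 or day 21) to 2.81 (without day 0) in expanded and -1.88 (without day 0) to -0.58 (without day 21) in non-expanded skin, and a difference of 1.12 (without day 21) to 4.69 (without day 0). No member and no gene passed the test of the difference in slope (166 genes, or 1.22%, and 0 members had an unadjusted p under 0.05).

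Most of the genes were lower in growing than in resting hair skin, with 1 array a side and no test. Between anagen and telogen skin, 9 of the 10 members were lower in anagen and Twist2 alone was higher, by 0.47. Of the 9 that passed the level filter, 8 were lower, against 50.4% of all genes, and 6 were lower by 1 or more on the log2 scale, a 2-fold change, against 20.4% of all genes. The differences were -4.01 for Osr2, -3.25 for Twist1, -2.37 for Prrx1, -1.57 for Osr1, -1.30 for Prrx2 and -1.12 for En1. Scx, Tcf21 and Tbx15 differed by -0.79, -0.66 and -0.29. The anagen array was the lowest of all 10 for 6 of the 9 (25.3% of all genes), namely these 6 genes with a difference beyond 1.

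Marker genes moved with these values. The mean of 15 hair genes (keratins and regulators of the shaft and its sheath) was 15.93 in anagen and 6.35 in telogen skin. The mean of 24 fibroblast markers was 11.37 in anagen and 12.17 in telogen skin, a difference of -0.80, with 18 of 24 lower in anagen. Osr2, Twist1, Prrx1, Osr1, Prrx2 and En1 each differed by more than that mean difference. The larger cutoff that set them apart above fixes this. Scx, Tcf21 and Tbx15 were lower by less than the mean difference, and Twist2 was higher in anagen. Adult skeletal muscle genes averaged 12.72 in anagen and 16.27 in telogen skin and were lower in 15 of 15 cases, and macrophage markers averaged 8.65 and 10.32. The part of these cells in the members' values was not tested.

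The expanded array of day 7 also carried hair genes, with a mean of 11.69 against 4.78 to 6.13 on the other expanded arrays. On that array 6 of the 9 tested members had the lowest value of the 4 expanded days (31.7% of all genes did). Set against the mean of the other 3 expanded days, Prrx1 differed by -1.63, Tbx15 by -1.52, Osr2 by -1.51, Twist1 by -0.75, Twist2 by -0.50 and Osr1 by -0.42. En1 and Scx differed by -0.01 and 0.01. The fibroblast marker mean was 12.94 on this array, against 13.31 to 13.66 on the other expanded arrays.

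**Figure D3:**
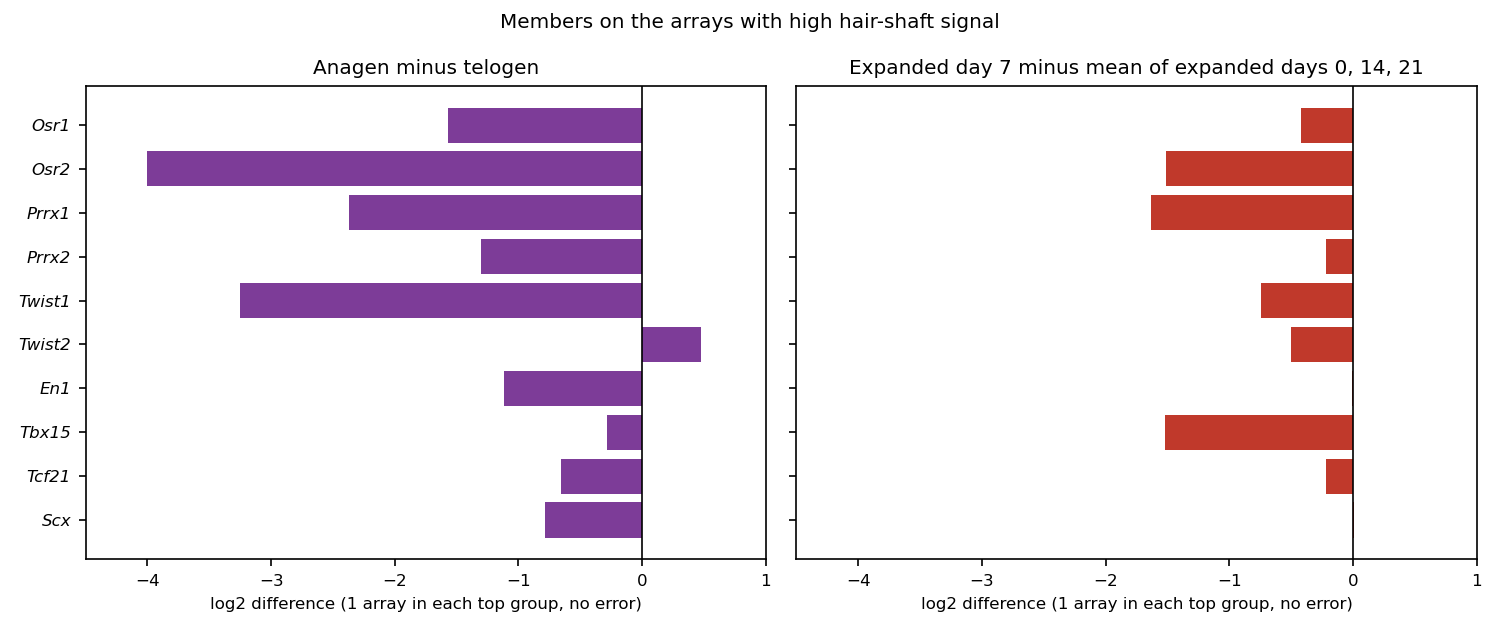
Log2 difference of each member (horizontal axis) for anagen minus telogen skin without surgery (left, purple) and for the expanded array of day 7 minus the mean of the other expanded days (right, red), with 1 array in each top group and so no error bar. Osr2, Twist1 and Prrx1 reach -4.01, -3.25 and -2.37 on the left, where Twist2 alone is positive.

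Within the families, the members followed each other to different degrees, given as Pearson correlations over the 10 arrays, which share arms and hair stages; they are a description. Prrx1 and Prrx2 correlated at 0.82, and at 0.51 over the 8 expander arrays. Osr1 and Osr2 correlated at 0.39 and 0.13, and Twist1 and Twist2 at -0.02 and -0.12. Over all 45 pairs of members the median was 0.52 on the 10 arrays and 0.12 on the 8 expander arrays. The highest pair was Osr1 with En1 at 0.83, the lowest Twist2 with Scx at -0.37.

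The 8 genes whose pattern lay closest to that of Osr1, by Pearson correlation over the 10 arrays among 13652 other genes tested, were Dab2, C4a, Nostrin, Dnajc25, Rap1b, Plek, St8sia4 and Lyz2, at 0.97 for the first and 0.96 for the last. In all, 132 genes (0.967%) reached 0.9. Dab2, an endocytic adaptor, read 14.22 to 15.01 in expanded and 14.51 to 15.25 in non-expanded skin, against 11.11 in anagen and 12.89 in telogen skin. C4a, a gene of the complement C4 family whose near-identical copy C4b may share probes with it, read 9.23 to 10.82 and 8.79 to 11.12 in the same arms, against 5.03 and 6.08. Lyz2, the lysozyme of macrophages and neutrophils, read 15.41 to 16.99 in expanded and 15.99 to 17.96 in non-expanded skin, against 11.14 in anagen and 13.81 in telogen skin. The choice by likeness to Osr1 fixes that these genes were high over an expander, and 8.10% of all genes had all 8 expander arrays above both arrays without surgery.

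Fibroblast and macrophage markers were higher over an expander as well. The fibroblast marker mean was 12.94 to 13.66 in expanded and 12.52 to 14.15 in non-expanded skin, against 11.37 in anagen and 12.17 in telogen skin. That of 7 macrophage markers was 11.24 to 12.87 and 11.63 to 13.68, against 8.65 and 10.32. In shifts from the mean without surgery, fibroblast markers differed by 1.62 in expanded and 1.46 in non-expanded skin, and macrophage markers by 2.82 and 3.45. With the fibroblast marker mean subtracted on each array, a description chosen after the values were seen, Osr1 differed from skin without surgery by 2.30 in expanded and 2.54 in non-expanded skin, and its values were 1.80 to 3.29 on the 8 expander arrays, against -0.35 in anagen and 0.42 in telogen skin. Prrx1 then differed by 0.41 and 0.15, and Prrx2 by -0.07 and -0.51. After this subtraction, Osr1 was the 1 member of 10 with all 8 expander arrays above both arrays without surgery. The share of all genes with such a gap after subtraction was not computed. Nothing is read from the count, because Osr1 was picked with earlier values known. Tcf21, below background on every array, had all 8 expander arrays below both arrays without surgery. It read -10.27 to -9.28 there, against -8.38 in anagen and -8.52 in telogen skin. The part of fibroblast and macrophage numbers in the Osr1 level was not tested.

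**Figure D4:**
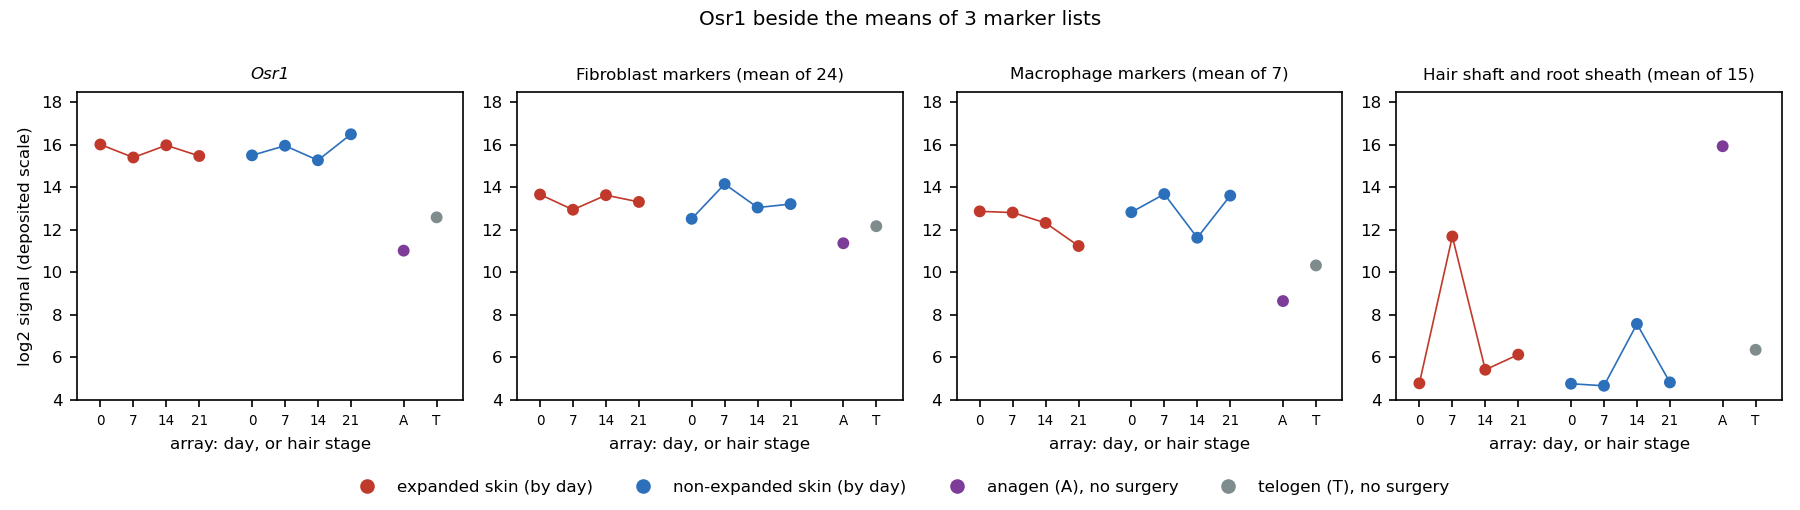
Log2 signal of Osr1 and the mean log2 signal of 24 fibroblast markers, 7 macrophage markers and 15 hair genes (keratins and regulators of the shaft and its sheath) on each array, with expanded (red) and non-expanded (blue) skin by day, then anagen (A) and telogen (T) skin; levels are not to be compared between panels. Osr1 and both cell marker means are lowest on the anagen array, where the hair mean is 15.93.

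A wider list of mesenchymal transcription factors was read beside the members. Of 42 genes listed, 38 were on the array and 26 passed the filter, and 0 passed the test in either direction in the 3 comparisons between groups. Against skin without surgery, 19 of 26 were higher in expanded skin with a median difference of 0.15, and 20 of 26 in non-expanded skin with a median of 0.32. Between expanded and non-expanded skin 10 of 26 were higher, with a median of -0.21. The 4 with the smallest p there were Runx1, a factor of blood and hair follicle stem cells, at 1.53 ± 0.38, Msx2, of the hair matrix, at 0.75 ± 0.37, Tbx3, of limb and mammary gland, at -0.49 ± 0.25, and Mkx, a tendon factor, at -0.44 ± 0.24, with adjusted p from 0.37 to 0.654. Msx2 read 11.67 in anagen and 4.28 in telogen skin, against the direction of most of the 10 members and of most of this list. Of the 26 tested genes of the list, 20 were lower in anagen than in telogen skin (50.4% of all genes were). Their median difference was -0.39, with 1 array a side and no test.

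Among the partners of the bHLH members, the E proteins Tcf3, Tcf4 and Tcf12 and their Id inhibitors, 7 of 7 were higher in expanded than in non-expanded skin, with a median of 0.36, and 0 passed. The Id4 mean was 9.39 ± 0.45 over expanded arrays, against 7.64 ± 0.73 over non-expanded arrays (SD, n = 4 each). This was a difference of 1.75 ± 0.28 (limma adjusted p = 0.27), and Id1 differed by 1.23 ± 0.35 (adjusted p = 0.429). Both, named for their small p between the arms, were higher on all 4 days, as 9.18% of all genes were. Id3 and Tcf4 differed by 0.55 ± 0.32 and 0.36 ± 0.32. By hair stage, Id4 read 12.24 in anagen and 6.95 in telogen skin, and Id1 12.98 and 10.93. Set against skin without surgery, 3 of 7 of these partners were higher in expanded and 2 of 7 in non-expanded skin, with medians of -0.09 and -0.33 and 0 passing. Markers of other cells also differed between the arms, with 0 passing: in expanded against non-expanded skin, hair genes were higher in 14 of 14, keratinocyte markers in 9 of 10 and immediate early genes in 9 of 9 cases, with medians of 1.37, 0.95 and 1.72, and adult skeletal muscle genes were lower in 13 of 15, with a median of -1.68. The mean of 15 hair genes was 11.69 on the expanded and 4.66 on the non-expanded array of day 7, by far the widest gap. At days 0, 14 and 21 it was 4.78, 5.41 and 6.13 in expanded skin, against 4.75, 7.57 and 4.82 in non-expanded skin, so day 14 went the other way. The part of these other cells in the Id values was not tested.

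Cofactors of homeodomain proteins and the Tle corepressors, to which En1 binds, numbered 8 of 9 on the array. Of them 6 were higher in expanded than in non-expanded skin, with a median of 0.22 and 0 passing. The 4 with the smallest p were Pbx3 at 0.45 ± 0.21, Tle3 at 0.37 ± 0.22 and Tle4 at 0.48 ± 0.33, higher in expanded skin, and Tle2 at -0.50 ± 0.24, lower. Against skin without surgery 3 of 8 were higher in either arm, with medians of -0.13 in expanded and -0.23 in non-expanded skin, and 0 passed.

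Tendon genes, the tissue Scx is known from, were read beside it. Of 13 listed, 12 were tested, and in expanded against no-surgery skin 9 of 12 were higher, with a median of 1.19, and 1 passed. That gene was Cilp, a cartilage and tendon matrix protein, which averaged 13.92 ± 0.66 in expanded skin (SD, n = 4), against 8.44 in anagen and 8.61 in telogen skin, a difference of 5.39 ± 0.54 (limma adjusted p = 0.00635). Thbs4, a thrombospondin of tendon and muscle, differed by 5.23 ± 1.08 (adjusted p = 0.0623). Between expanded and non-expanded skin 8 of 12 were higher with a median of 0.82 and 0 passed. Cilp differed by 2.58 ± 0.35, Thbs4 by 2.51 ± 0.57, Comp by 1.11 ± 0.22 and Col11a1 by 0.97 ± 0.21. All 4, named for the smallest p between the arms, were higher on each day, as 9.18% of all genes were. In non-expanded against no-surgery skin 9 of 12 were higher, with a median of 0.41 and 0 passing. Dermal papilla genes, of the mesenchymal core of the hair follicle, were higher in 10 of 13 cases in anagen than in telogen skin, with a median of 2.33. They were lower over an expander than without surgery in 9 of 13 cases in expanded and 10 of 13 in non-expanded skin, with medians of -0.75 and -0.91. Between the arms, 10 of 13 were higher in expanded than in non-expanded skin, with a median of 0.16. Against skin without surgery and between the arms 0 passed, and the hair stages had no test.

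Fibroblast markers, tested one by one, stood above skin without surgery in expanded skin for 22 of 24 genes, at a median of 1.68, and 2 passed, Mfap5, a microfibril protein, at 4.31 ± 0.69 (adjusted p = 0.0359) and Col6a2, a chain of collagen VI, at 2.57 ± 0.46 (adjusted p = 0.0454). In non-expanded skin 23 of 24 were higher with a median of 1.43 and 0 passed, and between the arms 12 of 24 were higher with a median of -0.01. Of the macrophage markers 7 of 7 were higher in expanded skin than without surgery with a median of 2.93, and 1 passed, Cd14, the endotoxin coreceptor, at 3.55 ± 0.62 (adjusted p = 0.0444). Immediate early genes numbered 9, all higher, at a median of 3.68, and 2 passed, Fosb at 7.56 ± 1.13 (adjusted p = 0.0259) and Dusp1 at 5.75 ± 0.82 (adjusted p = 0.0253). Muscle regeneration genes numbered 8, with 7 higher and a median of 2.49, and 2 passed, the embryonic myosin Myh3 at 8.59 ± 0.86 (adjusted p = 0.00635) and the troponin Tnnt2 at 5.01 ± 0.75 (adjusted p = 0.0259). In the same comparison, keratinocyte markers were higher in 6 of 10, adult skeletal muscle genes in 7 of 15, smooth muscle and myofibroblast genes in 4 of 6, endothelial markers in 7 of 7, adipocyte markers in 0 of 8, Schwann cell markers in 0 of 3 and hair genes in 0 of 14 cases, with medians of 0.45, -0.12, 0.57, 1.60, -1.23, -0.81 and -4.37, and 0 passed in these lists.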

How the data were processed

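RNA from whole back skin was labelled by the Affymetrix WT PLUS method, per the labels' protocols, and the submitters' processing notes name mm10. The deposited values, 1 for each of 28846 probe sets on each of 10 arrays, were read as log2 signals from their range (1.87 to 19.88); the log base, background correction and normalization are not given in the sources used here. A symbol was given for 19572 probe sets, naming 19505 genes, all matched by identifier to RefSeq (GRCm38.p6). For the 55 genes with several probe sets, that of highest mean level was kept, and genes with a mean at or below 4.86 were removed, which left 13653. Of these, 1486 (10.9%) had a mean below the background median.

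The tests, two-sided, used lmFit and eBayes of limma 3.58.1 under R 4.3.3, with Benjamini-Hochberg adjustment over all genes tested and a threshold of 0.05. Expanded and non-expanded skin were compared with the day as a block (3 residual degrees of freedom). A fit of all 10 arrays compared each arm with anagen and telogen skin pooled (7 residual degrees of freedom). Slopes over the days were fitted in 8 arrays (4 residual degrees of freedom). Comparisons with 1 array a side had no test. The labels number the days alike in both arms, which is the basis of the block; as a check, the departures of both arrays of a day from the means of their arms correlated at -0.13, -0.17, -0.10 and 0.36 in day order. The small number of arrays limits the precision. The code was tested on simulated data with less spread than these arrays and no gap between hair stages. That test does not show which differences these arrays could detect.

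The members, the lists and the rule for naming genes (all members; the 8 genes closest to Osr1; up to 4 genes of a list with the smallest p between the arms, and those that passed) were chosen with earlier results of these data known. Subtracting the fibroblast marker mean, and setting the expanded array of day 7 against the other expanded days, were added after seeing the values here. Scalings, filters, variance models, single hair stages and omission of arrays were tried as alternatives.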

Additional observations from a re-analysis of the deposited data

How the results depend on the processing

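Quantile normalization, centring arrays on their medians, a stricter filter, an intensity trend and robust eBayes changed no count of calls by over 1.5 times; with no filter, 33 genes in place of 65 passed between expanded skin and skin without surgery. Of 461 member values recomputed, 426 kept direction and side of the threshold. For many of them the difference itself could not change. Filters, variance models, the block and omission of arrays of the other arm leave it as it was. The count is therefore no measure of stability. Without the block by day, 2 genes and 0 members passed between the arms, the only comparison that used this block. Against anagen alone, a lone array assumed to vary as the expander arrays did, 1850 genes and 5 members passed for expanded and 2645 genes and 5 members for non-expanded skin; against telogen alone, 62 genes and 1 member passed for expanded and 0 genes and 0 members for non-expanded skin. Against telogen alone, Osr2 turned to -1.85 and Twist1 to -0.77 in expanded skin, and Osr2 turned to -0.81, Twist1 to -0.67 and Scx to -0.016 in non-expanded skin. The cause was not tested.

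Leaving out 1 array at a time gave 5 to 100 genes and 0 to 1 members in expanded skin against no surgery, with 0 members without the expanded array of day 0 or of day 14. For non-expanded skin it gave 0 to 112 genes and 0 to 1 members, and Osr2 in expanded skin ranged from -0.10 to 0.53 and Twist2 in non-expanded skin from -0.020 to 0.68. Leaving out 1 day at a time between the arms gave 0 to 1 genes, and values of -1.33 to -0.48 for Osr2, 0.36 to 0.71 for Prrx2, 0.23 to 1.07 for Twist2, and, with both signs, -0.36 to 0.22 for Osr1, -0.055 to 0.99 for Prrx1, -0.37 to 0.21 for Twist1, -0.13 to 0.060 for En1, -0.49 to 0.65 for Tbx15 and -0.22 to 0.28 for Scx, so the signs of these 6 are not settled. The Tbx15 slope difference ranged from -0.81 to 2.54. Signals near background limit Scx, and En1 and Prrx2 in anagen skin, and Tcf21 throughout.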
